A study of Homo sapiens with 8 samples.

Results

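Semaphorins, plexins and neuropilins are a ligand and receptor system, and the 31 genes that carry these names were followed through the response of lung adenocarcinoma cells to TGF-β. Members were taken by gene symbol, as SEMA followed by a digit and a letter, PLXN followed by A to D and a digit, and NRP1 and NRP2. This gave 20 semaphorins, 9 plexins and 2 neuropilins of 30017 symbols, each with 1 record. RNA sequencing covered 8 libraries, 2 in each of 4 groups, with TPM, a length-corrected share of all transcripts in a library, as the level of each gene.

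The groups were Smad3(RA/KP) cells with TGF-β, Smad3(RA/KP) cells without it, wild-type Smad3 cells with TGF-β, and wild-type Smad3 cells without it. All 4 groups were A549-S3KO cells, a SMAD3 knockout made by paired nickases in a cloned subline of A549, a human lung adenocarcinoma line. Smad3(RA/KP) carries the substitutions R104K and A105P, and each form came from a lentivirus. TGF-β was given at 1 ng/ml to trypsinized cells as they were seeded on collagen, and RNA was taken after 8 h. Infected cells were cloned by limiting dilution, and the clones that were sequenced are not named. Of the wild-type Smad3 clones, the one that expressed least was picked. A difference between the lines therefore cannot be told apart from a difference between clones. With 2 libraries a group, p-values rest on the spread left after group and replicate number, drawn towards that of genes at a similar level. The study describes the 2 replicates as independent experiments.

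Semaphorins are secreted or membrane-bound guidance proteins, first known from growing axons and later from vessels, immune cells and epithelial tumors. Plexins are their main receptors, and a GTPase-activating domain inside the cell acts on R-Ras and Rap proteins and thereby on integrin adhesion and actin. Neuropilins bind class 3 semaphorins at the cell surface, hand them to plexins, and also bind growth factors such as VEGF.

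SEMA7A, NRP2 and SEMA4G passed the test in both lines, and the 250 bases before their start sites are shown, since these are the promoters next to the responses described here. The sequences are from RefSeq, GRCh38.p14, each 5′ to 3′ on the gene's own strand. Capitals mark CAGAC or its reverse complement GTCTG, a 5-base motif that Smad3 is known to bind.
SEMA7A, chr15:74433959-74434208, minus strand: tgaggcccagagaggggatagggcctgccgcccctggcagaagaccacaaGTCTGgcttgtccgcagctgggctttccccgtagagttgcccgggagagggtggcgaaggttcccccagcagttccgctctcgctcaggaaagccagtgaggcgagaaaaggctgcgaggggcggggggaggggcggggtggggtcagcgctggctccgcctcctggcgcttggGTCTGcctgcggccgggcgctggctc
NRP2, chr2:205682251-205682500, plus strand: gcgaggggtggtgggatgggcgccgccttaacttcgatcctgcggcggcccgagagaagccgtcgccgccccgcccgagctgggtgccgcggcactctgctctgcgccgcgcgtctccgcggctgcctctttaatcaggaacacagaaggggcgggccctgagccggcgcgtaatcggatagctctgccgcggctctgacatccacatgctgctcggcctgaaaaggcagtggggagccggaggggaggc
SEMA4G, chr10:100969254-100969503, plus strand: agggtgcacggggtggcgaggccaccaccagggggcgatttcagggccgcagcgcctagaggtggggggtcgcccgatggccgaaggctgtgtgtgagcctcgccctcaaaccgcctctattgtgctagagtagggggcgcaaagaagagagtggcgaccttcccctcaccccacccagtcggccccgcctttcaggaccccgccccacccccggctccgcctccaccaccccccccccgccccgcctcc

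The SEMA7A window held 2 matches to the motif, and the NRP2 and SEMA4G windows held 0. Of the 27 members with a promoter in the table, 8 (29.6%) held at least 1 match on either strand, against 38.0% of all 35116 promoters of the same length. A match of 5 letters describes the sequence and was not tied to binding here. The deposited start of SEMA7A was the RefSeq start, and those of SEMA4G and NRP2 lay 7 and 41 bases from theirs. Among members with a match, the starts were 3038 bases apart for SEMA3C, 5973 for PLXNB2, 16577 for SEMA4B and 65125 for SEMA3D. For the other members with a match they were at most 353 bases apart. A window far from the deposited start may not be the promoter of the record measured.

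SMAD3 itself had 137 to 187 TPM in the 8 libraries, a level that holds the introduced cDNA and any transcript of the edited gene. The libraries held 1.15 to 1.81 Gb of mapped bases. The A549 markers KRT8, KRT18, EPCAM, CDH1, AKR1B10 and AKR1C2 were each at or above 1 TPM, and 4 of 5 endothelial markers, KDR among them, were listed at 0 in every library. The immune markers PTPRC and CD3E and the neuronal marker SYN1 were at 0 in every library, while CD14 had 4.11 to 13.5 TPM and TUBB3 had 296 to 614 TPM. The untreated Smad3(RA/KP) replicate 2 library stood apart from the rest in base composition. In that group the log2 difference of replicate 2 minus 1 followed GC content with a Spearman rho of -0.58 across 12424 genes, against 0.10 to 0.22 in the other 3 groups. The calls of members in Smad3(RA/KP) cells, with the fold changes behind them, are therefore also given without that library. Genes of other lists are given from the main fit alone.

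Of the 31 members, 21 had a mean of at least 1 TPM and were tested, 12 semaphorins, 7 plexins and 2 neuropilins. The 10 that were not tested were PLXNA4, PLXNC1, SEMA3D, SEMA3E, SEMA3G, SEMA4A, SEMA5A, SEMA5B, SEMA6A and SEMA6D. SEMA3D, SEMA5A and SEMA6D were listed at 0 in every library. The most abundant semaphorin was SEMA4B, with a mean of 110.1 TPM, the most abundant plexin was PLXNB2, with 81.3 TPM, and NRP2 had the higher mean of the neuropilins over the 8 libraries, with 50.4 TPM, although NRP1 was the higher of the pair in each untreated library. TPM is per length, so these levels can be set beside each other.

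With TGF-β, 5 of the 21 members tested changed in Smad3(RA/KP) cells and 4 in wild-type Smad3 cells (limma, Benjamini-Hochberg adjusted p under 0.05). In Smad3(RA/KP) cells SEMA7A, NRP2 and PLXNA3 rose and NRP1 and SEMA4G fell. In wild-type cells SEMA7A and NRP2 rose and SEMA4G and SEMA6B fell. Of all 13141 genes tested, 4.98% were called in Smad3(RA/KP) cells and 4.68% in wild-type cells. The members' median log2 fold change was 0.02 in Smad3(RA/KP) cells, beside -0.10 over all genes tested, and -0.16 in wild-type cells, beside -0.06 over all genes tested. The lines share no library in these 2 comparisons, but the fit estimated 1 spread and 1 effect of replicate number from all 8.

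Several of these calls rested on how the libraries were modelled. Without the replicate number as a block, SEMA7A was the 1 member called in each line. That fit called 2.05% of all genes in Smad3(RA/KP) cells and 2.11% in wild-type cells. Without untreated Smad3(RA/KP) replicate 2, SEMA7A was also the 1 member called in Smad3(RA/KP) cells, and the same held without treated Smad3(RA/KP) replicate 2. Without that untreated library the log2 fold change in Smad3(RA/KP) cells was 3.58 for SEMA7A, 0.87 for NRP2 (limma, adjusted p = 0.0756), 0.76 for PLXNA3 (adjusted p = 0.173), -1.02 for NRP1 (adjusted p = 0.150) and -1.87 for SEMA4G (adjusted p = 0.0569), with 2.69% of all genes called. The count in that line was 2 without its treated replicate 1, 3 without one or the other treated wild-type library, and 7 without its untreated replicate 1, a fit that called 20.0% of all genes. In wild-type cells SEMA7A was the 1 member called without untreated replicate 1 or without treated replicate 1 of that line, and 2 members were called without one or the other of its remaining libraries. With no filter on low values, SEMA7A was the 1 member called in Smad3(RA/KP) cells, with 1.32% of all genes called. Each fit above that called fewer members in a line also called a smaller share of all genes there than the main fit. SEMA7A passed in both lines under every alternative that was run, and no called value changed sign under any of them.

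Among the ligands, SEMA7A had the largest response. SEMA7A is attached to the membrane by a lipid (GPI) anchor and signals through β1 integrins and plexin C1. The gene lies on chromosome 15 (GRCh38, 74409289 to 74433958, minus strand). SEMA7A had 18.3 and 28.1 TPM in Smad3(RA/KP) cells with TGF-β, against 0.566 and 1.12 TPM without it. SEMA7A had 20.1 and 34.6 TPM in wild-type cells with TGF-β, against 0.799 and 1.93 TPM without it. The treated and untreated libraries were far apart in both lines, and the ratio within a same-numbered pair lay between 18.0 and 32.3.

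The fitted log2 fold change of SEMA7A was 3.70 ± 0.22 (SE) in Smad3(RA/KP) cells (limma, adjusted p = 0.000134), against 3.58 ± 0.22 in wild-type Smad3 cells (adjusted p = 9.4e-05). By size of change SEMA7A ranked 7 and 6 of all genes tested in those lines. The fold change is on the log2(TPM + 1) scale, which understates the change of a gene that starts near 1 TPM. As a share of all semaphorin TPM, SEMA7A made up 8.11 and 12.2% in treated Smad3(RA/KP) cells, against 0.225 and 0.505% in untreated ones. The share was 10.5 and 15.2% in treated wild-type cells and 0.345 and 0.883% in untreated wild-type cells. The known SEMA7A receptors were unevenly present. ITGB1, the β1 integrin chain, had 234 to 460 TPM and the plexin C1 gene PLXNC1 had at most 0.122 TPM. ITGA1, too low to be tested, was at 0 in each untreated library. With TGF-β it had 0.743 and 0.387 TPM in Smad3(RA/KP) cells and 1.25 and 1.28 TPM in wild-type cells.

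SEMA4G, a class 4 transmembrane semaphorin on chromosome 10 (100969497 to 100985616, plus strand), fell in both lines. SEMA4G had 7.76 and 2.42 TPM in treated Smad3(RA/KP) cells, against 29.2 and 9.21 TPM in untreated ones. SEMA4G had 5.36 and 3.50 TPM in treated wild-type cells, against 32.2 and 9.22 TPM in untreated ones. Replicate 1 was above replicate 2 in every group, and the untreated libraries were above the treated ones without overlap in each line. The fitted log2 response was -1.68 ± 0.30 in Smad3(RA/KP) cells (adjusted p = 0.0145), against -1.78 ± 0.30 in wild-type Smad3 cells (adjusted p = 0.0105). SEMA4G overlaps MRPL43, a mitochondrial ribosomal protein gene on the opposite strand, over 7795 bases, and the counting is not stated to use strand. MRPL43 had 198 to 420 TPM, and its log2 fold change was 0.06 ± 0.25 in Smad3(RA/KP) cells and -0.28 ± 0.25 in wild-type cells, neither past the test. How far reads of MRPL43 enter the SEMA4G values was not tested.

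SEMA6B is a class 6 transmembrane semaphorin that binds A-type plexins, plexin A4 among them. SEMA6B had 7.54 and 5.41 TPM in treated Smad3(RA/KP) cells, against 16.5 and 9.42 TPM in untreated ones. SEMA6B had 5.79 and 3.92 TPM in treated wild-type cells, against 16.5 and 11.2 TPM in untreated ones. The groups did not overlap in either line. On the log2 scale the change was -0.87 ± 0.21 in Smad3(RA/KP) cells, short of the threshold (limma, adjusted p = 0.0516), and SEMA6B fell in wild-type cells, at -1.34 ± 0.21 (adjusted p = 0.00849). The difference of the 2 responses was 0.47 (95% interval -0.21 to 1.14), so a difference between the lines was not detected. With the GC trend removed from each library, the change was -1.24 in Smad3(RA/KP) cells (limma, adjusted p = 0.0045). In wild-type cells it was then -1.25 (adjusted p = 0.0035). Without untreated Smad3(RA/KP) replicate 2 the value in that line was -1.01. PLXNA4 was below the level for testing, with 1.09 and 0.750 TPM in treated and 0.151 and 0.121 TPM in untreated Smad3(RA/KP) cells. In wild-type cells PLXNA4 had 0.869 and 0.864 TPM with TGF-β and 0.0791 and 0.154 TPM without it. Its mean base coverage was at most 0.0945, and with no filter on low values its response missed the threshold in both lines (limma, adjusted p of 0.0740 for Smad3(RA/KP) and 0.0719 for wild-type cells).

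Class 3 semaphorins are secreted and mostly signal through neuropilins. SEMA3C, which can bind both neuropilins, had 48.3 and 28.9 TPM in treated Smad3(RA/KP) cells, against 38.2 and 38.2 TPM in untreated ones. SEMA3C had 53.8 and 41.1 TPM in treated wild-type cells, against 33.0 and 24.0 TPM in untreated ones. The treated library was higher in replicate 1 and lower in replicate 2 in Smad3(RA/KP) cells, while both treated wild-type libraries were above both untreated ones. The response, as a log2 fold change, was -0.03 ± 0.20 in Smad3(RA/KP) cells (limma, adjusted p = 0.942), against 0.72 ± 0.20 in wild-type Smad3 cells (adjusted p = 0.0874), and neither passed. SEMA3C had the 1 difference between the responses with an unadjusted p under 0.05, at -0.75 (95% interval -1.39 to -0.11), and it did not pass after adjustment (adjusted p = 0.881). Without untreated Smad3(RA/KP) replicate 2 that difference was -0.49, and after removal of the GC trend from each library it was -0.39.

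SEMA3B, a secreted semaphorin studied as a tumor suppressor in lung cancer, had 13.2 and 7.66 TPM in treated Smad3(RA/KP) cells and 17.2 and 9.86 TPM in untreated ones. SEMA3B had 5.13 and 6.02 TPM in treated wild-type cells and 13.5 and 7.37 TPM in untreated ones. Treated and untreated libraries overlapped in Smad3(RA/KP) cells and not in wild-type cells, and the treated one was lower in each same-numbered pair, by ratios of 0.379 to 0.818. As a log2 fold change the response was -0.34 ± 0.28 in Smad3(RA/KP) cells (limma, adjusted p = 0.493), against -0.75 ± 0.28 in wild-type Smad3 cells (adjusted p = 0.205). SEMA3A, a ligand of neuropilin-1, SEMA3E, which binds plexin D1 directly, and SEMA3F, a ligand of neuropilin-2, stayed low, with means of 1.36, 0.582 and 1.61 TPM.

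SEMA4B, the most abundant member, had 93.8 and 127.7 TPM in treated Smad3(RA/KP) cells, against 119.3 and 125.5 TPM in untreated ones. SEMA4B had 71.9 and 105.8 TPM in treated wild-type cells, against 104.0 and 132.6 TPM in untreated ones. The groups overlapped in both lines. On the log2 scale the response was -0.16 ± 0.17 in Smad3(RA/KP) cells (limma, adjusted p = 0.601), against -0.42 ± 0.17 in wild-type Smad3 cells (adjusted p = 0.238). The other class 4 genes tested were SEMA4C, a ligand of plexin B2, with a mean of 15.9 TPM, SEMA4D, a ligand of plexin B1, with 4.62 TPM, and SEMA4F, with 5.23 TPM. SEMA6C had a mean of 1.78 TPM. None of these passed in either line, and in both lines their log2 fold changes lay between -0.55 and 0.38. Summed over the family, semaphorin TPM was 225.3 and 230.9 in treated Smad3(RA/KP) cells and 251.4 and 221.3 in untreated ones. The sums were 192.0 and 228.0 in treated wild-type cells and 231.7 and 218.1 in untreated ones, so the groups overlapped in both lines.

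The 2 neuropilins had responses of opposite sign in both lines, of which the NRP1 response in wild-type cells did not pass the test. NRP2, a receptor for class 3 semaphorins and for VEGF-C, lies on chromosome 2 (205682460 to 205798133, plus strand). NRP2 had 76.3 and 51.5 TPM in treated Smad3(RA/KP) cells, against 38.8 and 26.6 TPM in untreated ones. NRP2 had 75.6 and 69.6 TPM in treated wild-type cells, against 37.6 and 26.8 TPM in untreated ones. Every treated library was above every untreated one, with ratios of 1.93 to 2.60 within same-numbered pairs. The fitted log2 response was 0.94 ± 0.18 in Smad3(RA/KP) cells (limma, adjusted p = 0.0180), against 1.17 ± 0.18 in wild-type Smad3 cells (adjusted p = 0.00655), with a difference of -0.23 (95% interval -0.79 to 0.34).

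NRP1, a receptor for SEMA3A and co-receptor for VEGF-A, lies on chromosome 10 (33177491 to 33334905, minus strand). NRP1 had 35.2 and 17.7 TPM in treated Smad3(RA/KP) cells, against 59.8 and 59.2 TPM in untreated ones. NRP1 had 27.2 and 25.5 TPM in treated wild-type cells, against 55.2 and 48.4 TPM in untreated ones. Every treated library was below every untreated one, and ratios within same-numbered pairs were 0.298 to 0.588. NRP1 fell in Smad3(RA/KP) cells, at -1.22 ± 0.24 on the log2 scale (limma, adjusted p = 0.0219). In wild-type cells the change was -0.95 ± 0.24 and missed the threshold (adjusted p = 0.0627). The difference of the responses was -0.27 (95% interval -1.04 to 0.49).

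The share of NRP2 within the pair was higher with TGF-β in both lines, as a description with no test. NRP2 made up 68.5 and 74.5% of the summed neuropilin TPM in treated Smad3(RA/KP) cells, against 39.4 and 31.0% in untreated ones. The share was 73.6 and 73.2% in treated wild-type cells, against 40.5 and 35.7% in untreated ones. NRP1 was the more abundant neuropilin in each untreated library and NRP2 in each treated one. The summed level overlapped between treated and untreated libraries in Smad3(RA/KP) cells, at 111.5 and 69.1 TPM with TGF-β and 98.6 and 85.8 TPM without it. In wild-type cells the sum was 102.8 and 95.1 TPM with TGF-β and 92.8 and 75.2 TPM without it.

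Among the plexins, 1 of 7 tested passed in Smad3(RA/KP) cells and 0 of 7 in wild-type cells by limma, beside 4.98% and 4.68% of all genes. An unadjusted p under 0.05 was reached by 3 plexins in Smad3(RA/KP) cells and 1 in wild-type cells. Of all 13141 genes tested, 2875 and 2172 reached it in those lines. A-type plexins are the usual signaling partners of neuropilins. PLXNA3, on chromosome X (154458281 to 154473646, plus strand), had 14.1 and 19.9 TPM in treated Smad3(RA/KP) cells, against 7.89 and 7.24 TPM in untreated ones. PLXNA3 had 9.29 and 15.9 TPM in treated wild-type cells, against 7.94 and 9.73 TPM in untreated ones. The groups were apart in Smad3(RA/KP) cells and overlapped in wild-type cells, and the treated library was higher in each same-numbered pair, by ratios of 1.17 to 2.75. PLXNA3 rose in Smad3(RA/KP) cells by 1.06 ± 0.24 on the log2 scale (limma, adjusted p = 0.0425), and the change in wild-type cells was 0.43 ± 0.24 (adjusted p = 0.446). The difference of the responses was 0.62 (95% interval -0.15 to 1.40). The PLXNA3 call was lost in 7 of the 8 fits that left out 1 library, which gave adjusted p of 0.0156 to 0.263.

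PLXNA1 had 45.0 and 51.7 TPM in treated Smad3(RA/KP) cells, against 24.6 and 35.7 TPM in untreated ones. PLXNA1 had 33.9 and 45.1 TPM in treated wild-type cells, against 28.1 and 36.1 TPM in untreated ones. The groups were apart in Smad3(RA/KP) cells and overlapped in wild-type cells, and the treated library was higher in each same-numbered pair, by ratios of 1.21 to 1.83. The response, as a log2 fold change, was 0.69 ± 0.17 in Smad3(RA/KP) cells (limma, adjusted p = 0.0557), against 0.29 ± 0.17 in wild-type Smad3 cells (adjusted p = 0.477). PLXNA2 had a mean of 1.52 TPM, and its values of 0.66 ± 0.32 in Smad3(RA/KP) cells and 0.69 ± 0.32 in wild-type cells did not pass.

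Plexin D1 is a receptor for SEMA3E and, with neuropilins, for SEMA3C. PLXND1 had 50.4 and 30.5 TPM in treated Smad3(RA/KP) cells, against 33.0 and 15.4 TPM in untreated ones. PLXND1 had 34.1 and 29.3 TPM in treated wild-type cells, against 31.0 and 22.5 TPM in untreated ones. The groups overlapped in both lines, but the treated library was the higher one in each same-numbered pair, by ratios of 1.10 to 1.98. As a log2 fold change the response was 0.77 ± 0.22 in Smad3(RA/KP) cells (limma, adjusted p = 0.0913), against 0.25 ± 0.22 in wild-type Smad3 cells (adjusted p = 0.687). Without untreated Smad3(RA/KP) replicate 2 the value in that line was 0.47 (adjusted p = 0.342).

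B-type plexins bind class 4 semaphorins and associate with the receptor tyrosine kinases MET and ERBB2. PLXNB2 had 92.3 and 70.7 TPM in treated Smad3(RA/KP) cells, against 101.5 and 70.9 TPM in untreated ones. PLXNB2 had 62.7 and 68.3 TPM in treated wild-type cells, against 93.0 and 91.5 TPM in untreated ones. Both treated wild-type libraries were below both untreated ones, and the groups overlapped in Smad3(RA/KP) cells, where ratios within same-numbered pairs were 0.909 and 0.997. On the log2 scale the response was -0.07 ± 0.19 in Smad3(RA/KP) cells (limma, adjusted p = 0.856), against -0.49 ± 0.19 in wild-type Smad3 cells (adjusted p = 0.235). PLXNB1 had a mean of 9.76 TPM and PLXNB3 of 1.64 TPM, and neither passed in any comparison.

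The 2 lines were also compared directly. For the difference of the TGF-β responses, 0 of 21 members passed (limma, 1 at an unadjusted p under 0.05), with 0.0228% of all genes called. For the untreated lines 0 passed (limma, 0 at an unadjusted p under 0.05), with 0.0152% of all genes called. For the treated lines 0 passed (limma, 1 at an unadjusted p under 0.05), with 0.00761% of all genes called. Of all 13141 genes, 564, 329 and 973 had an unadjusted p under 0.05 in these comparisons, in that order. The member with an unadjusted p under 0.05 between the treated lines was SEMA3B, higher in Smad3(RA/KP) cells by 0.76 ± 0.28 on the log2 scale (adjusted p = 0.639). The difference of the SEMA7A responses was 0.12 (95% interval -0.59 to 0.83) and that of the SEMA4G responses 0.10 (95% interval -0.85 to 1.06). With intervals of this width the responses were not shown to be alike.

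The differences between the lines were also set beside base composition, and whether it accounts for them was not tested. The response was larger in Smad3(RA/KP) cells, as a signed value, for 16 of 21 members, 6 of 7 plexins among them. The median difference was 0.18 on the log2 scale, beside -0.02 over all genes tested. Of the 21 members, 14 lay at or above the 75th percentile of GC content among the genes tested, while SEMA3A and SEMA3C lay below the 25th. With the GC trend of each library removed the difference was positive for 11 of 21 members. Its median was then 0.01, beside -0.01 over the 12424 genes of that fit. Without untreated Smad3(RA/KP) replicate 2 the difference was positive for 12 of 21, with a median of 0.13 beside 0.05 over all genes tested. For the plexins it stayed positive in 6 of 7 in both of these fits, and their median of 0.49 became 0.16 with the GC trend removed and 0.33 without that library.

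Genes that act with these families were counted from lists, in the main fit alone. That fit includes untreated Smad3(RA/KP) replicate 2, and how far that library bears on these counts was not tested. Of the ligands of neuropilins other than semaphorins, 9 of 11 were tested, and 4 rose and 0 fell in each line, where 4.98% of all genes were called in Smad3(RA/KP) cells and 4.68% in wild-type cells. PDGFB, a chain of platelet-derived growth factor, had 39.7 and 41.7 TPM in treated and 4.70 and 4.57 TPM in untreated Smad3(RA/KP) cells, and 50.7 and 42.2 TPM in treated and 5.25 and 6.68 TPM in untreated wild-type cells. Its log2 fold change was 2.89 ± 0.20 in Smad3(RA/KP) cells (limma, adjusted p = 0.000256), against 2.77 ± 0.20 in wild-type Smad3 cells (adjusted p = 0.000207). VEGFA rose by 1.76 ± 0.20 in Smad3(RA/KP) cells (limma, adjusted p = 0.00184) and by 1.28 ± 0.20 in wild-type Smad3 cells (adjusted p = 0.00771), and PDGFA rose by 1.07 ± 0.18 in Smad3(RA/KP) cells and by 1.21 ± 0.18 in wild-type cells. The median over this list was 0.88 in Smad3(RA/KP) cells, beside -0.10 over all genes tested, and 0.70 in wild-type cells, beside -0.06. VEGFC, the gene of the NRP2 ligand VEGF-C, did not pass in either line but was lower with TGF-β in each same-numbered pair. VEGFC had 5.24 and 6.79 TPM in treated and 7.25 and 18.5 TPM in untreated Smad3(RA/KP) cells. In wild-type cells VEGFC had 2.40 and 7.01 TPM with TGF-β and 8.67 and 10.6 TPM without it. KDR, the VEGF receptor that works with neuropilin-1 in endothelium, was listed at 0 in every library.

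Of the effectors downstream of plexins, 39 of 41 were tested, and 7 rose in Smad3(RA/KP) cells, 3 rose in wild-type cells and 0 fell in either, beside the same 4.98% and 4.68% of all genes. RND1, a small GTPase that binds plexins directly, had 79.7 and 63.9 TPM in treated and 24.4 and 13.6 TPM in untreated Smad3(RA/KP) cells, and 97.6 and 84.2 TPM in treated and 35.6 and 18.3 TPM in untreated wild-type cells. Its log2 fold change was 1.91 ± 0.21 in Smad3(RA/KP) cells (limma, adjusted p = 0.00176), against 1.79 ± 0.21 in wild-type Smad3 cells (adjusted p = 0.00201). RHOD, another plexin-binding GTPase, rose by 1.29 ± 0.18 in Smad3(RA/KP) cells and by 1.02 ± 0.18 in wild-type cells. MICAL1, of a family of enzymes that oxidize actin, rose by 1.13 ± 0.19 in Smad3(RA/KP) cells (limma, adjusted p = 0.0123), and its value of 0.75 ± 0.19 in wild-type cells missed the threshold (adjusted p = 0.0650). MICAL2, of the same family, rose by 0.98 ± 0.20 in Smad3(RA/KP) cells and by 1.06 ± 0.20 in wild-type cells. The other 3 that rose in Smad3(RA/KP) cells were LIMK1, RRAS and FLNA. The median over this list was 0.17 in Smad3(RA/KP) cells and 0.11 in wild-type cells, beside the same all-gene medians of -0.10 and -0.06, and for the difference of the responses 0 of 39 passed (limma, 0 at an unadjusted p under 0.05).

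Of the proteases that process these proteins, 6 of 7 were tested and 1, FURIN, passed in both lines. Of all genes, 4.98% were called in Smad3(RA/KP) cells and 4.68% in wild-type cells. FURIN, a proprotein convertase that cleaves class 3 semaphorins, had 166.0 and 154.4 TPM in treated and 48.1 and 36.3 TPM in untreated Smad3(RA/KP) cells, and 179.4 and 163.6 TPM in treated and 44.2 and 44.1 TPM in untreated wild-type cells. Its log2 fold change was 1.91 ± 0.16 in Smad3(RA/KP) cells (limma, adjusted p = 0.00044), against 1.93 ± 0.16 in wild-type Smad3 cells (adjusted p = 0.000386). Of the co-receptors and partners, 9 of 17 were tested, and 0 passed in either line (limma, 2 at an unadjusted p under 0.05 in each). Such a p was found for 2875 of all 13141 genes in Smad3(RA/KP) cells and 2172 in wild-type cells. MET and ERBB2 were among those 9, MET at -0.15 ± 0.24 on the log2 scale in Smad3(RA/KP) cells and 0.45 ± 0.24 in wild-type cells, and ERBB2 with -0.09 ± 0.17 and -0.41 ± 0.17 in those lines.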

How the data were processed

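RNA from the 8 samples was sequenced from Ion Total RNA-Seq Kit v2 libraries. The authors deposited 1 table per library with the mean base coverage, FPKM and TPM of 33122 gene records, made from reads aligned to GRCh38. The submitters' processing notes name HISAT2 2.1.0 and StringTie 2.0.4. The annotation behind the records was not given in the sources used here. TPM values were scaled by the authors to a fixed total, and FPKM by length and mapped fragments. Deposited coverage served to recover mapped bases, as its modal ratio to FPKM where FPKM was at least 10. The files hold no read counts, so no counting interval is given.

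Records of 1 symbol were summed, and symbols with a mean TPM of at least 1 were tested on the log2(TPM + 1) scale with limma 3.58.1 (R 4.3.3). The fit used all 8 libraries, with group and replicate number as terms, a prior variance that follows the mean, and p-values adjusted by Benjamini-Hochberg over all 13141 genes tested, at 0.05. It had 3 residual and 5.90 prior degrees of freedom. That a number marks the same experiment, within a line and in both lines, is an assumption. Errors are SE, and intervals are 95%. GC content is that of a symbol's longest GENCODE transcript, matched for 12424 genes. The fit was tested on simulated data. Alternatives were other pseudocounts, filters, units, scalings, blocks and variance models, GC correction, and each library left out.

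The members and lists were chosen with earlier results of these data known. Named by library are the members past the threshold or with an unadjusted p under 0.05 in any comparison, and the most abundant of each family; from each list, values are given for at most 3 past the threshold, by smallest p in either line. Genes named outside this rule (MRPL43, KDR, VEGFC, ITGB1, ITGA1, MET, ERBB2, PLXNA4, MICAL2 and the other effectors that passed) were chosen after their values were seen. Python 3.11.15 with matplotlib 3.10.9 made the figures.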

Additional observations from a re-analysis of the deposited data

How the results depend on the processing

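The members called were recounted under 12 other settings and 8 fits that each left out 1 library. In Smad3(RA/KP) cells the count of 5 became 1 with no filter on low values, 3 with no mean-variance trend, 7 of 15 tested at a mean of at least 5 TPM, 7 of 17 with FPKM, 6 with a pseudocount of 0.1, median-ratio scaling, quantile normalization or the GC trend removed, and 1 to 7 with 1 library left out. The lowest count came without untreated replicate 2 or treated replicate 2 of that line, and the highest without its untreated replicate 1. In wild-type cells the count of 4 became 6 with the GC trend removed and 1 to 5 with 1 library left out, the lowest without untreated replicate 1 or treated replicate 1. With no filter on low values the wild-type count was 3 of 28 tested. It was 5 of 15 at a mean of at least 5 TPM, 5 of 17 with FPKM, and 5 with median-ratio scaling or quantile normalization. Of all genes tested, 4.98% were called in Smad3(RA/KP) cells and 4.68% in wild-type cells in the main fit. Where leaving out 1 library lowered a count, the share of all genes called was also below that of the main fit. The share in Smad3(RA/KP) cells was 1.32% with no filter, 3.95% with no mean-variance trend, 7.04% at 5 TPM and 6.36% with FPKM. It was 4.55% with a pseudocount of 0.1, 5.32% with median-ratio scaling and 5.33% with quantile normalization. With the GC trend removed it was 7.58% in Smad3(RA/KP) cells and 9.85% in wild-type cells. The wild-type share was 1.56% with no filter, 6.13% at 5 TPM and 5.81% with FPKM. It was 5.01% with median-ratio scaling and 5.02% with quantile normalization. Of 2050 values of single members, 43 lost and 20 gained a call, 0 that were called in either fit changed sign, and 96 that were called in neither did. SEMA7A kept its call under all 12 settings and all 8 left-out libraries in each line. NRP2 kept it in 10 of 12 and 5 of 8 in Smad3(RA/KP) cells and in 11 of 12 and 4 of 8 in wild-type cells.

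The replicate number was used as a block. Deviations of same-numbered libraries correlated at 0.0484 (untreated and treated Smad3(RA/KP) cells) to 0.332, so the pairing was not shown in every pair of groups. With no replicate block 1 member was called in each line, and with the replicate block within each line 3 were called in Smad3(RA/KP) cells and 4 in wild-type cells. The share of all genes called in Smad3(RA/KP) cells was 2.05% with no block and 2.86% with the block within each line. In wild-type cells these shares were 2.11% and 2.83%. Depth is known only as mapped bases, and members with a mean under 1 TPM were compared only in the fit with no filter.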
